A study of Mus musculus with 2 samples.

Results

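The genes described are the cytochrome P450 genes of families 1 to 4 outside the Cyp2c subfamily, followed in mouse hepatocytes with and without an active form of ezrin. Members were found by gene symbol among probe sets annotated to a single gene, by a rule that uses no measured value. They are 45 genes in 18 subfamilies, read by 58 of the 34945 single-gene probe sets (45 of 18193 genes). The 2 arrays compare sorted hepatocytes of male FVB mice aged 6 to 8 weeks. All mice received by hydrodynamic tail vein injection, which forces a large volume of plasmid solution into the liver, 10 µg of a plasmid for Ezrin T567D and 0.8 µg of the transposase plasmid pCMV/SB in 2 ml of saline. Per the source names, hepatocytes were isolated 1 week later and sorted by GFP, and the labels equate GFP-negative cells with EzrinT567D negative and GFP-positive cells with EzrinT567D positive. Ezrin ties the cell membrane to the actin cortex, and the T567D form mimics the phosphorylated protein. Both groups therefore came from injected mice, and neither is an uninjected control. The labels conflict on time and feeding: the growth protocol gives chow for both, while the descriptions name 2 months for both samples, with chow for the negative one but fast food for the positive one, so the time after injection is uncertain, and Ezrin T567D and diet cannot be told apart if the descriptions hold. The plasmid name is the only statement on what drives the transgene, and the sources used here do not give the number of mice, whether they were pooled or whether both fractions came from the same livers.

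Each group held 1 array, so the differences have no replicate error, test or p-value, and the number of arrays limits the precision of each. Values are MAS5 signals, which are comparable between arrays for 1 probe set but not between probe sets. A signal counted as measured when it exceeded a background floor, set at the 95th percentile of 84 sets for chemosensory receptors (smell, taste and trace amines). The floor was 252.66 for the negative array and 334.04 for the positive array. Over the whole array, 10178 genes had a measured signal in 1 or both arrays and 8362 in both. The only error that can be estimated is technical: for 3182 genes with several measured probe sets, the log2 ratios from the brightest pair differed with an SD of 0.42. Of the hepatocyte markers Alb, Apoa1, Apob, Ttr, Cps1, Hnf4a, Asgr1, Asgr2 and Fgb, 9 of 9 exceeded the floor in both arrays. Fewer markers of other liver cells did: 3 of 9 Kupffer cell markers, 6 of 9 of sinusoidal endothelium, 7 of 9 of stellate cells, 0 of 7 of cholangiocytes, 0 of 7 of lymphocytes and 0 of 4 of neutrophils exceeded it in both, with the Kupffer markers Marco, Adgre1 and Timd4, the stellate marker Des and the cholangiocyte marker Epcam below it in both arrays. The summed signals of these lists were 2642.9 and 2293.3 for Kupffer cells, 4943.5 and 5486.5 for sinusoidal endothelium, 3602.6 and 3237.5 for stellate cells, 1072.4 and 1194.6 for cholangiocytes, 1170.1 and 1047.1 for lymphocytes and 244.8 and 477.3 for neutrophils (negative and positive array). These sums include signals below the floor, and the neutrophil sum holds no other, so no direction is drawn from it. Each sum adds probe sets that are not comparable with each other, so the brightest weigh most. None of the sums measures how many cells of a type were present. The part of these cells in the P450 ratios was not tested. In these sorted pools fewer cells of a type and less RNA per cell cannot be told apart.

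Cytochrome P450 enzymes are heme-containing monooxygenases that insert 1 oxygen atom into their substrates, with electrons passed from the reductase Por and, in part, from cytochrome b5. In the liver, families 1 to 3 oxidise drugs, toxicants and steroids, and family 4 mainly oxidises fatty acids and eicosanoids at the chain end. Many of these genes are switched on by ligand-activated receptors: the aryl hydrocarbon receptor (AhR) for Cyp1 genes, CAR and PXR for Cyp2b and Cyp3a genes, and PPARA for Cyp4a genes. Several are also zoned along the liver lobule, with Cyp1a2 and Cyp2e1 made mostly around the central vein and Cyp2f2 mostly near the portal vein.

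Most members had like signals in the 2 arrays, as most measured genes did, and a few differed more. Cyp1a2 read 2.16-fold higher in the positive array and Cyp2f2 1.82-fold lower. Cyp3a44 read 1.76-fold and Cyp2j9 1.55-fold higher, both at signals near the floor. Cyp2e1 read 1.38-fold higher, while Cyp2u1 and Cyp2j5 read lower by a like amount (1.38-fold and 1.36-fold). Of the 45 member genes, 24 exceeded the floor in both arrays, 2 (Cyp2b10 and Cyp4f39) only in the negative array, 2 (Cyp2d40 and Cyp2j13) only in the positive array and 17 in neither. At least 2-fold higher signals were found for 2 of the 28 members above the floor in at least 1 array, Cyp1a2 and, as a bound, Cyp2d40. The same held for 1.34% of all genes above the floor. No member was at least 2-fold lower, against 0.58% of all genes. Among the 24 members measured in both arrays, 16 read lower and 8 higher in the positive array, where 49.4% of all measured genes read lower and 50.6% higher. Their median log2 ratio, positive over negative, was -0.13, and that of all measured genes was 0.0043. Log2 ratios lay within 0.5 of 0 for 20 of the 24 members (83.3%) and for 85.4% of all measured genes.

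**Figure D1:**
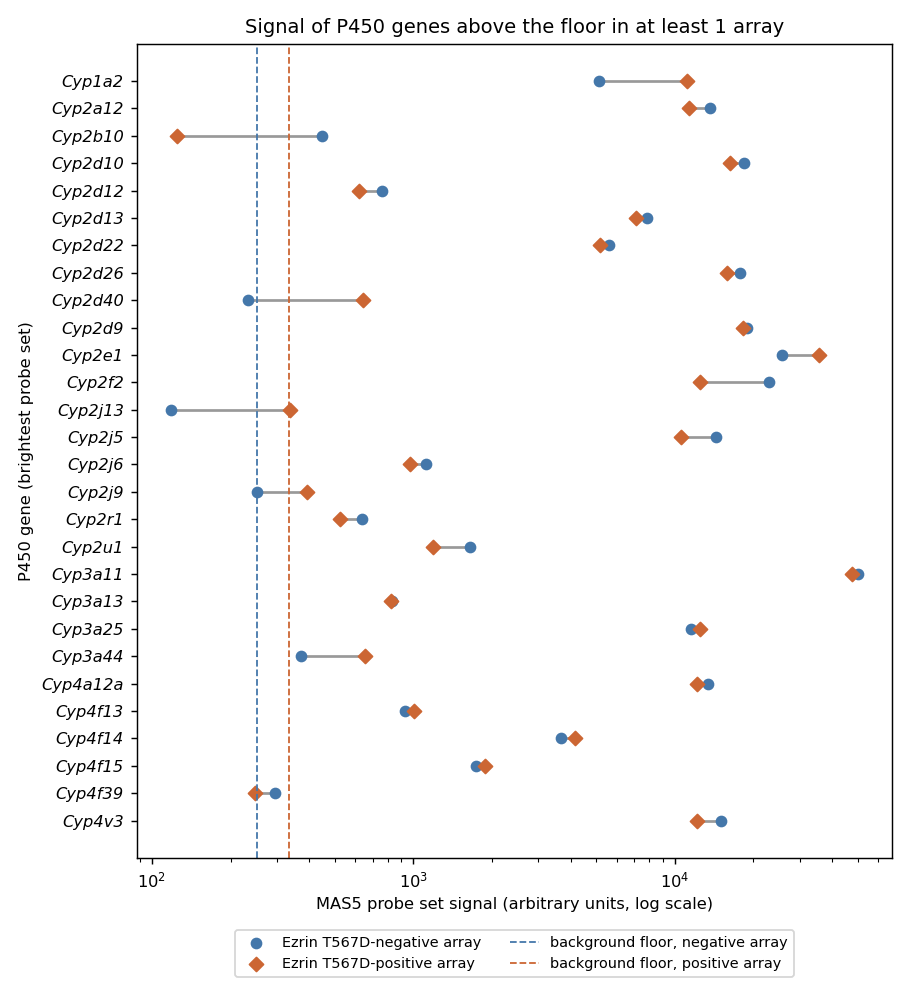
Signal of the 28 P450 genes above the background floor in at least 1 array, 1 row per gene (brightest probe set), on a logarithmic axis in arbitrary MAS5 units. Circles are the Ezrin T567D-negative and diamonds the positive array, with 1 array each and no error bars, and dashed lines are the floors at 252.66 and 334.04. The pairs of Cyp1a2, Cyp2e1 and Cyp2f2 are spread well above the floor, whereas those of Cyp2b10, Cyp2d40 and Cyp2j13 straddle it.

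The direction of these small ratios went with signal strength. Of the 24 measured members, 11 (45.8%) had a mean signal above 10000, which 349 (4.17%) of all measured genes reached. In that range 78.5% of all genes read lower in the positive array, with a median log2 ratio of -0.13. Of the 11 bright members 9 read lower, with a median of -0.17. The 10th and 90th percentiles of all genes in that range were -0.36 and 0.10. Of the bright members, Cyp2e1 at 0.47 and Cyp2f2 at -0.87 lay far outside them, and Cyp2j5 at -0.44 lay below the 10th percentile too. A loess correction of the ratio for signal left the members' median at -0.038, with 14 of 23 lower and 9 higher.

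**Figure D2:**
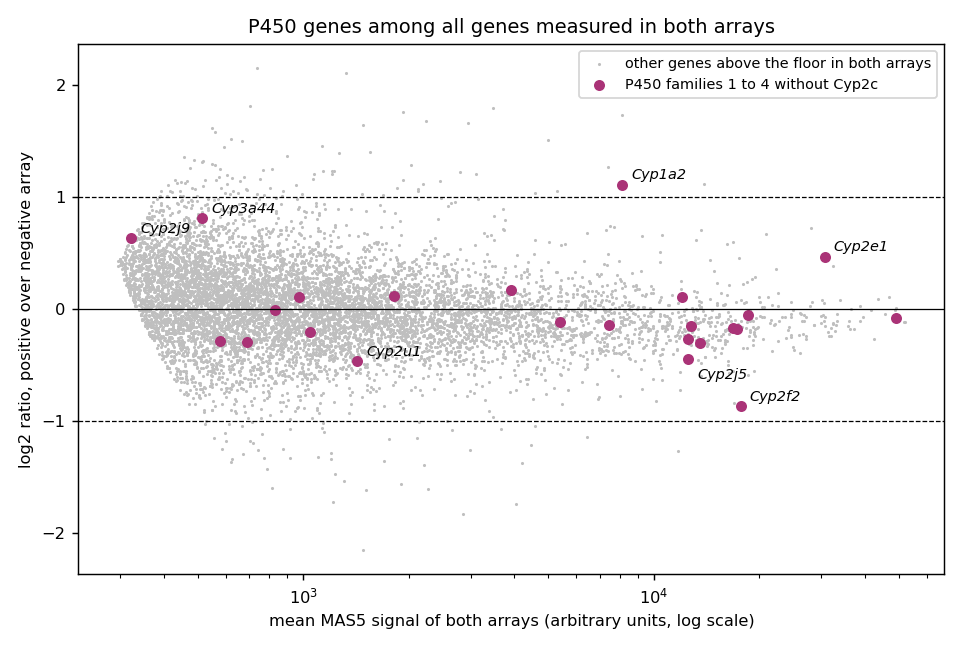
Positive over negative log2 ratio against the mean signal of both arrays (logarithmic axis) for the 8362 genes that exceeded both floors, with the 24 P450 members as large points. Dashed lines mark 2-fold. Members beyond the technical SD of 0.42 are named, and Cyp1a2, Cyp2e1 and Cyp2f2 lie at the edge of the genes of like signal.

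The Cyp1 family showed the highest ratio of a member measured in both arrays. Cyp1a2, which oxidises caffeine and aromatic amines and is made constitutively in hepatocytes, read 5137.7 (negative array) and 11096.1 (positive array), a log2 ratio of 1.11. Further pairs of signals are given in the same order, and signed values after them are log2 ratios. It ranked 60th from the top of the 8362 genes measured in both arrays. Both signals were far above the floor, by 20.3-fold and 33.2-fold, and the log2 ratio was 1.21 after quantile normalization and 1.22 after loess. Cyp1a1, its neighbour on the same chromosome and the classic gene induced through AhR, read 181.0 and 121.1, below the floor in both. Cyp1b1, mostly made outside hepatocytes, was below the floor in all 3 of its probe sets, with at most 206.8.

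Cyp2e1, the ethanol-oxidising and acetaminophen-oxidising P450, read 25774.8 (negative array) and 35639.3 (positive array). Cyp2f2, which oxidises naphthalene, read 22864.6 and 12535.1 and ranked 80th from the bottom of the measured genes. These were the members with the largest ratios in each direction at a mean signal above 10000. Cyp2e1 stood at 0.58 and Cyp2f2 at -0.75 after loess. Each is read by 1 probe set. The promoters of Cyp1a2, Cyp2e1 and Cyp2f2 are shown because Cyp1a2 had the highest ratio of the members measured in both arrays, and Cyp2e1 and Cyp2f2 the largest in each direction at a mean signal above 10000. They come from RefSeq on GRCm38.p6 and end at the base before the start site: chr9:57683656-57683905, minus strand, for Cyp1a2, chr7:140763569-140763818, plus strand, for Cyp2e1 and chr7:27119705-27119954, plus strand, for Cyp2f2. Capitals mark motifs found on either strand, and none of the marked motifs overlap:
Cyp1a2 promoter: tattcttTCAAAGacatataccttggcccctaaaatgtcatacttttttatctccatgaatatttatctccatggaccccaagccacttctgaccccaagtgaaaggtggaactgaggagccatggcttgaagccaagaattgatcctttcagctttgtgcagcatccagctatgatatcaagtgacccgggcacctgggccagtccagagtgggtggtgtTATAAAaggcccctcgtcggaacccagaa
Cyp2e1 promoter: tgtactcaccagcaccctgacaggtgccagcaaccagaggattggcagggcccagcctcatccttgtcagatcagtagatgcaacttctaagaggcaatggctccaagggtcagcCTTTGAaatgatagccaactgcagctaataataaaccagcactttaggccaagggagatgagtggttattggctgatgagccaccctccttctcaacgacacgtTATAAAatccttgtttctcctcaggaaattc
Cyp2f2 promoter: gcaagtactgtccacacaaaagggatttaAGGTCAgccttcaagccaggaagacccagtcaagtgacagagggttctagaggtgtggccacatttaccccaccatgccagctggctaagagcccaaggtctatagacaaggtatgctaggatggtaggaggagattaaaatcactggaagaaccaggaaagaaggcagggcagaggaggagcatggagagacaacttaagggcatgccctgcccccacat

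Five-letter and six-letter motifs were searched on both strands in windows of 300 bases, 250 before to 50 after each start site, for 34 of the 45 members with a promoter in the table. Members are counted as genes with the motif in any of their promoters (39 for the 34 genes). The shares of all promoters count each promoter by itself, so the 2 are not strictly alike. TATAAA, the TATA box, began 29 bases upstream in Cyp1a2 and 31 bases upstream in Cyp2e1, and no copy was found in the Cyp2f2 window. It occurred in 12 of the 34, in 9 of the 19 of them measured in both arrays and in 13.6% of all promoters. CTTTGA, the core bound by TCF and LEF factors, began 243 bases upstream in Cyp1a2 (reverse strand, TCAAAG) and 135 bases upstream in Cyp2e1. It was present in 8 of the 34 and in 6 of the 19, the other measured genes being Cyp2j5, Cyp3a11, Cyp3a13 and Cyp3a25, and in 16.0% of all promoters. AGGTCA, the half-site of nuclear receptors, began 221 bases upstream in Cyp2f2 and occurred in 9 of the 34, in 5 of the 19 and in 16.3% of all promoters. GCGTG, the core of the AhR element, was in 10 of the 34, Cyp1a1 among them, and in 4 of the 19 (Cyp2j9, Cyp2r1, Cyp4f14 and Cyp4v3), against 32.4% of all promoters. GTTAAT, a half-site of HNF1 factors, was in 2 of the 34, both among the 19 (Cyp2d26 and Cyp4f14), and in 7.10% of all promoters. Measured genes with CTTTGA had log2 ratios from -0.44 (Cyp2j5) to 1.11 (Cyp1a2), with Cyp3a11 (-0.08), Cyp3a13 (-0.010) and Cyp3a25 (0.10) between them. The part of these motifs in the ratios was not tested.

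In the Cyp2a subfamily the single-gene probe set and the shared one differed. Cyp2a12, a steroid hydroxylase and the only member of the subfamily with a probe set of its own, read 13692.5 and 11367.7 (1.20-fold lower in the positive array). Cyp2a4 and Cyp2a5, a steroid hydroxylase and the mouse coumarin hydroxylase, share 1 probe set and are for that reason not members. It read 2460.4 (negative array) and 11300.4 (positive array), 4.59-fold higher, with a log2 ratio of 2.20 as deposited and 2.29 after loess. This probe set was singled out after its values were seen, and it cannot tell the 2 genes apart. In RefSeq, Cyp2a5, Cyp2a12 and Cyp2f2 lie in this order in 1 cluster on chromosome 7, so genes of the cluster had ratios in both directions.

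The Cyp2b genes, typical targets of CAR, were near or below the floor. Cyp2b10 read 446.2 and 124.9 in its brightest probe set, at least 1.34-fold lower in the positive array once the dim signal is raised to the floor. Its second probe set read 282.5 and 193.1 and gave no bound, and the third, at 222.1 and 97.6, was below the floor in both arrays. Cyp2b9 (199.9 and 216.9), Cyp2b13 (21.0 and 126.0) and the skin-expressed Cyp2b19 (75.1 and 205.5) were below the floor in both.

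The Cyp2d subfamily, relatives of human CYP2D6 clustered on chromosome 15, was the largest. Of its 8 members 6 were measured in both arrays. All 6 read lower in the positive array as deposited, by -0.05 to -0.29 on the log2 scale. Of all measured genes, 78.5% read lower at a mean signal above 10000, 59.2% from 1000 to 10000 and 39.3% below that. Cyp2d9 turned to 0.05 after quantile normalization and 0.06 after loess. After loess Cyp2d10 stood at -0.063, Cyp2d26 at -0.058, Cyp2d13 at -0.038 and Cyp2d22 at -0.023, but Cyp2d12 at -0.34. Cyp2d9, a testosterone hydroxylase made mainly in males, read 18908.2 and 18231.4. Cyp2d10 read 18321.5 and 16216.6, Cyp2d26 read 17829.8 and 15840.4, and Cyp2d22 read 5598.8 and 5159.4. The log2 ratios of these 4 genes, -0.05, -0.18, -0.17 and -0.12, were all smaller in size than the technical SD. Cyp2d12 read 757.5 and 618.7 (-0.29). Cyp2d13, which RefSeq lists as a transcribed pseudogene, read 7829.2 and 7089.4 in 1 probe set (-0.14) and 6681.1 and 7206.0 in the other (0.11), so its direction depended on the probe set. Close paralogs in this cluster can share probes, and their signals are uncertain as values of single genes.

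Cyp2d40 was the Cyp2d gene with a bound above 2-fold. It read 233.0 in the negative array, below the floor, and 642.5 in the positive array, at least 2.54-fold higher (log2 bound 1.35). With 1 floor of 334.04 for both arrays the bound was 0.94, and with the 99th percentile floor 0.91, both under 2-fold. The remaining member, Cyp2d34, read 172.3 and 278.5, below both floors. Promoter windows were present for Cyp2d9, Cyp2d10, Cyp2d26 and Cyp2d40. In global alignments Cyp2d9 and Cyp2d10 were identical at 83.2% of the aligned columns. Cyp2d26 matched Cyp2d9 at 53.5% and Cyp2d10 at 54.8%, and Cyp2d40 matched them at 54.7% and 54.6% and Cyp2d26 at 48.0%. The identity of unrelated promoters was not computed for comparison, and the part of promoter sequence in these ratios was not tested.

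Cyp2j enzymes, which turn arachidonic acid into epoxides, differed among themselves. Cyp2j5 read 14410.9 and 10595.2 in its brightest probe set (-0.44) and 2215.8 and 1918.2 in the other (-0.21), so both read lower in the positive array. Cyp2j6 read 1118.4 and 969.3 (-0.21). Cyp2j9 read 253.1 and 392.3 (0.63), with the negative signal just above the floor of 252.66, and with 1 floor for both arrays only a bound of 0.23 was left. Cyp2j13 read 118.3 and 338.2, at least 1.34-fold higher, with the positive signal just above the floor of 334.04. Cyp2j11 (182.6 and 165.9) was below the floor.

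Of the single-gene subfamilies, Cyp2r1, which hydroxylates vitamin D, read 637.1 and 522.4 (-0.29). Cyp2u1, a fatty acid hydroxylase, read 1649.6 and 1192.3 in its brightest probe set (-0.47) but 374.5 and 469.4 in the other (0.33), and the mean over both was -0.071. This was the widest gap, 0.79, among the 5 members with 2 probe sets measured in both arrays. Cyp2g1 (237.8 and 181.3), known from olfactory tissue, and the epithelial Cyp2s1 (80.7 and 115.0) were below the floor.

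**Figure D3:**
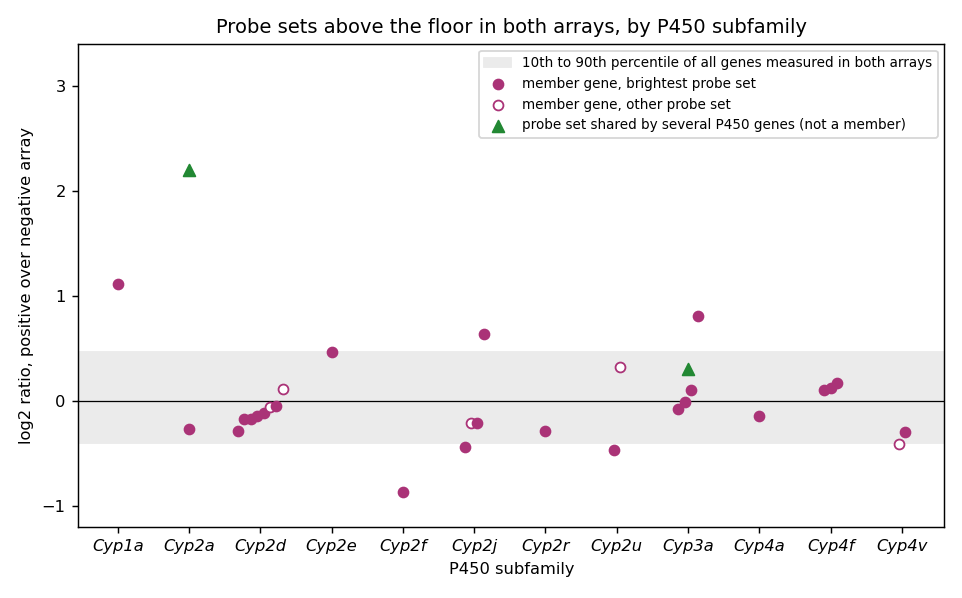
Positive over negative log2 ratio of each P450 probe set that exceeded both floors, by subfamily. Filled circles are the brightest probe set of a member, open circles its other probe set, triangles probe sets shared by several P450 genes and the grey band the 10th to 90th percentile of all measured genes (-0.40 to 0.47). Cyp2d and Cyp4f ratios are tightly grouped near 0, and the shared Cyp2a4 and Cyp2a5 probe set lies highest at 2.20.

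The main drug-oxidising subfamily, Cyp3a, had like signals in the 2 arrays for 3 of its 4 measured genes, with Cyp3a44 higher in the positive array. Cyp3a11, the chief liver enzyme of the subfamily and a target of PXR, read 50254.6 and 47581.4 (-0.08 as deposited and 0.04 after loess). Cyp3a25 read 11576.1 and 12439.5 (0.10), and Cyp3a13 read 829.7 and 824.2 (-0.010). Cyp3a44, a female-biased gene, read 372.5 and 653.9, 1.76-fold higher (0.81), at signals of 1.47 and 1.96 times the floor. Female-biased Cyp3a16 (43.8 and 58.7) was below the floor in both arrays. The probe set shared by Cyp3a41a and Cyp3a41b read 273.0 and 336.0, just above both floors (0.30), and its log2 ratio was -0.078 after loess.

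Family 4 genes, which oxidise fatty acids, leukotrienes and other eicosanoids, showed small ratios. Cyp4a12a, the male-biased arachidonic acid hydroxylase, read 13441.0 and 12123.1 (-0.15). The PPARA-induced genes Cyp4a14 (111.6 and 165.0) and Cyp4a31 (76.5 and 153.3 in the brighter of its probe sets) were below the floor, as was the probe set shared by Cyp4a10 and Cyp4a31 (132.8 and 218.6). The 3 Cyp4f genes measured in both arrays read higher in the positive array by small amounts. Of the alternative settings only quantile normalization and loess could move these ratios, and they stayed positive under both. Cyp4f14, a hydroxylase of leukotriene B and vitamin E, read 3683.2 and 4150.3 (0.17), Cyp4f15 read 1738.5 and 1888.3 (0.12), and Cyp4f13 read 932.9 and 1003.7 (0.11). Cyp4f39 read 297.1 and 247.8 and gave no bound. Cyp4v3, counterpart of the human fatty acid hydroxylase CYP4V2, read 14964.1 and 12141.8 in 1 probe set (-0.30) and 5021.8 and 3778.7 in the other (-0.41), so both were lower in the positive array. Cyp4f16 (232.5 and 307.2), Cyp4f18 (32.3 and 116.4), the pseudogene Cyp4f41-ps (28.0 and 24.7), the lung gene Cyp4b1 (131.8 and 173.8) and Cyp4x1 (34.1 and 32.2) were below the floor.

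Of the 64 protein-coding P450 genes of these families in RefSeq, 43 had a probe set of their own. The other 21, among them Cyp2d11, Cyp2w1, Cyp3a57, Cyp4a12b and Cyp4a32 as well as the genes of the shared probe sets Cyp2a4, Cyp2a5, Cyp3a41a, Cyp3a41b, Cyp4a10 and Cyp4f37, have no value here as single genes. The 17 members below the floor in both arrays had signals of at most 237.8 and 307.2 in the negative and positive arrays, and no fold is given for them.

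The receptors and factors that control these genes had no common direction. Of 29 with a probe set 26 were measured in both arrays, 12 higher and 14 lower, 0 by 2-fold, with a median of -0.068. PXR (Nr1i2) read 416.8 and 736.3 (0.82), Ahr 796.5 and 1396.2 (0.81) and CAR (Nr1i3) 948.8 and 1445.8 (0.61). Foxa1, read only in the positive array at 449.0, had a bound of 0.83. Foxa2 was lower (667.3 and 413.3, -0.69), and Hnf4a read 14622.0 and 11717.9 (-0.32). The AhR partner Arnt read 2156.1 and 1464.6 (-0.56), and Ppara read 2646.5 and 3051.2 (0.21). So the 3 xenobiotic receptors of the list read higher, by less than 2-fold.

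Target genes of these receptors outside the P450 family did not follow 1 direction either. Of 7 AhR targets with a probe set 4 were measured in both arrays, 1 higher and 3 lower (median -0.53). Tiparp read 651.5 and 449.5 (-0.54), while Nqo1 and Ahrr, like Cyp1a1, were below the floor. Of the CAR and PXR targets, 17 were measured in both, 12 higher and 5 lower (median 0.19), led by the glutathione transferase Gstm3 (3739.8 and 12484.5, 3.34-fold). Gstm3 and 2 others of them also stand in the pericentral list, and without these 3 the counts were 9 and 5 and the median 0.092. Of the PPARA targets 15 were measured in both, 6 higher and 9 lower (median -0.039). Of the 19 above the floor in at least 1 array, 3 were at least 2-fold higher and 0 lower, against 1.34% and 0.58% of all genes. The 3 were Aldh3a2 (3.39-fold), the thioesterase Acot2 (2.23-fold) and, as a bound, Pdk4 (3.52-fold).

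Transcripts of electron transfer partners and of heme enzymes had no difference of 2-fold. All 16 genes of this list with a probe set were measured in both arrays, 10 higher and 6 lower, with a median of 0.16. Cytochrome b5 (Cyb5a) read 21478.1 and 23692.2 (0.14), its reductase Cyb5r3 read 16857.6 and 19979.8 (0.25), and Alas1, the first enzyme of heme synthesis, read 5298.2 and 6409.6 (0.27). The biliverdin reductase Blvrb (0.93) and the heme synthesis enzyme Cpox (0.70) had the largest ratios. Por itself has no probe set of its own among those used.

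Genes zoned along the lobule like Cyp1a2, Cyp2e1 and Cyp2f2 differed between the arrays too, with no test. Of the pericentral genes outside the P450 family 15 of 15 measured in both arrays read higher in the positive array, with a median of 0.81 and, including the bound of Rnf43, 7 at least 2-fold. Of the periportal genes 16 of 17 read lower, with a median of -0.84 and 8 at least 2-fold. Of all genes measured in both arrays 50.6% read higher and 49.4% lower. Of those above the floor in at least 1 array, 1.34% were at least 2-fold higher and 0.58% lower. The lists were chosen with earlier results of these data known, so these splits are descriptive only. Of the P450 genes listed as pericentral, Cyp1a2 (1.11) and Cyp2e1 (0.47) read higher. Cyp3a25 (0.10) and Cyp3a11 (-0.08 as deposited and 0.04 after loess) were near 0, and Cyp4a14 was below the floor. Listed Cyp2a4, Cyp2a5 and Cyp4a10 have no probe set of their own. The one shared by Cyp2a4 and Cyp2a5 read higher (2.20), and that shared by Cyp4a10 and Cyp4a31 was below the floor. The periportal list held Cyp2f2 only. Immediate early genes, which respond within minutes to stimulation and tissue handling, were also higher, 17 of 19 measured in both arrays, with a median of 0.42. The part of zonal makeup and of handling in the P450 ratios was not tested.

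**Figure D4:**
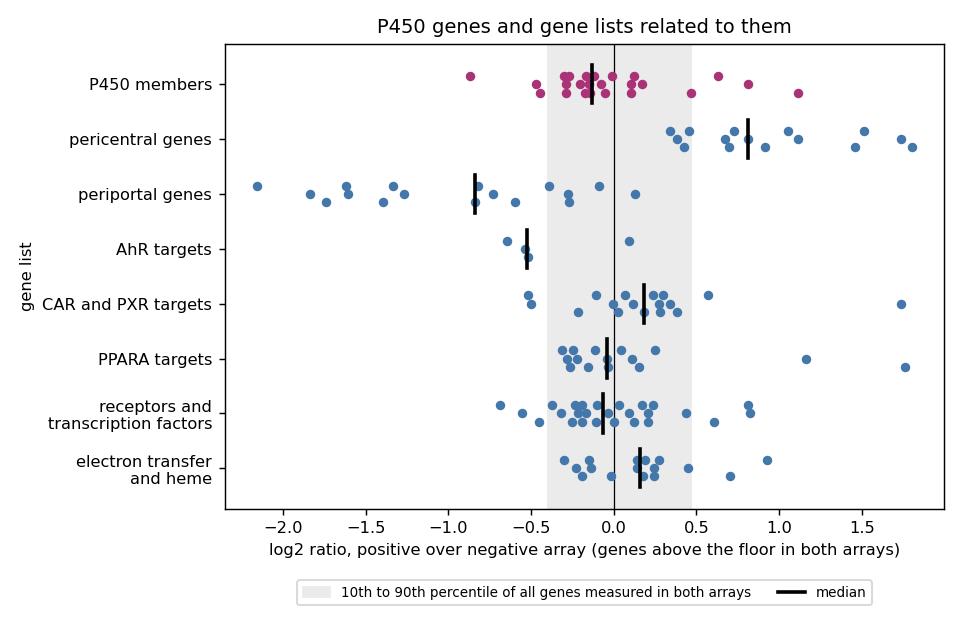
Positive over negative log2 ratio of the 24 P450 members and of related gene lists, 1 point per gene that exceeded both floors, with the median as a bar and the 10th to 90th percentile of all measured genes as a grey band. P450 members are centred near 0 (median -0.13), pericentral genes near 0.81 and periportal genes near -0.84, and points are spread vertically only for legibility. The lists were chosen with earlier results of these data known.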

How the data were processed

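Sorted hepatocytes were profiled on Affymetrix Mouse Genome 430 2.0 arrays, 1 for each group. The authors deposited probe set intensities on a linear scale, made with MAS5 per the submitters' processing notes; the sources used here give neither its version nor its settings. Both arrays had a 2% trimmed mean of 500.0, so an overall shift cannot be seen. Probe sets were named from the platform annotation, and 45 of 45 member symbols matched RefSeq (GRCm38.p6) by Entrez ID with 0 changed. The probe set with the highest mean signal stood for its gene. For a gene above the floor in 1 array, the dim signal was raised to its floor, giving a bound; a bound pointing away from the measured side was set to 0. Medians and directions cover genes above the floor in both arrays. Every member above the floor in at least 1 array is named with both signals; other named genes have the largest ratios of their list or serve as examples picked after their values were seen. Members and lists were chosen with earlier results of these data known. Computation used pandas 2.3.3 and statsmodels 0.14.6 (loess span 0.3) and was tested on simulated data. Alternatives were other floors, quantile and loess scaling, other probe set rules and other treatments of bounds. Probe sets with several symbols (932) or none (9160) and 64 controls were left out of gene values.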

Additional observations from a re-analysis of the deposited data

How the results depend on the processing

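The count of members at least 2-fold higher was 2 as deposited and stayed 2 after quantile normalization, loess, the mean over probe sets, without probe sets of suffix _x_at, _s_at or _a_at and with bounds as computed. It was 1, Cyp1a2, with the 99th percentile floor, with 1 floor for both arrays and over genes above the floor in both arrays only, where Cyp2d40 has a bound under 2-fold or is not counted. Without a floor it was 8, with 1 member at least 2-fold lower and a median of -0.0096, because signals below background are then included; every other setting gave 0 members at least 2-fold lower. The median lay between -0.14 and -0.038 under the other settings. Of 241 gene values under the 9 alternatives, 238 moved by less than the technical SD and 4, of Cyp2d9, Cyp2d13 and Cyp3a11, changed sign, all near 0. Many of the 241 could not move, because floors and bounds leave the ratio of a gene that stays above the floor in both arrays as it is. The 238 is therefore no measure of how stable the values are. Cyp2f2 has no value without probe sets of these suffixes. Over all genes, 136 were at least 2-fold higher and 59 lower as deposited, 99 and 62 after quantile normalization and 81 and 87 after loess, so the split of all genes depends on scaling. That of the members stayed at 2 and 0, too few genes for a comparison. By direction, 8 members read higher and 16 lower as deposited, 9 and 15 after quantile normalization and 9 and 14 after loess. No paired analysis was possible because each group holds 1 array. Signal over background limits what can be said of the 21 members at or below the floor in 1 or both arrays.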

Other observations

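P450 genes of families 5 and above, which serve bile acid, sterol and retinoid metabolism, were also mostly alike in the 2 arrays. Of 16 genes 8 were measured in both, 5 higher and 3 lower, with a median of 0.16. Cyp7a1, the first enzyme of the classic bile acid pathway, was the only one at least 2-fold higher (1884.1 and 4344.0). Cyp8b1, which makes cholic acid, read 2249.6 and 2593.6 (0.21), and Cyp26a1, which clears retinoic acid, read 3278.3 and 4234.7 (0.37).

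Sex-biased liver genes outside the P450 members had no common direction. Of the male-biased genes 9 were measured in both arrays, 5 higher and 4 lower (median 0.22), while the 3 measured male-biased members, Cyp2d9, Cyp4a12a and Cyp2u1, read lower at -0.05, -0.15 and -0.47, although Cyp2d9 turned slightly positive under both rescalings (0.05 and 0.06) and the second probe set of Cyp2u1 read higher at 0.33. Of 13 female-biased genes 10 did not exceed either floor and 1 was measured in both, Cux2 (1350.4 and 1135.5).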
